A study of Homo sapiens with 17 samples.

Results

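Replication-dependent histone genes encode the linker histones H1 and the core histones H2A, H2B, H3 and H4 that package new DNA as it is copied. Their members were taken by symbol alone: H1-1 to H1-6 and every gene of the H2AC, H2BC, H3C and H4C series. The rule found 69 of the 41040 named genes in the files, with 6 genes of class H1, 17 of H2A, 18 of H2B, 13 of H3 and 15 of H4. Of these, 41 passed the filter on low counts and were tested, and 28 did not. RNA was measured by bulk sequencing in IMR-90, a line of human lung fibroblasts, at 3 stages: week 0, untreated (n = 5), and week 1 and week 4 after an exposure of 48 hours to 20 µM etoposide, a topoisomerase II poison that breaks DNA and was used here to induce senescence (n = 6 each). All groups came from the same line, and untreated cells were collected at week 0 only, so treatment and time in culture cannot be told apart. Nothing in the labels says whether the libraries of a group came from separate cultures, so the p-values speak of the variation among these particular libraries, and that variation may be technical.

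Most histone messenger RNA is made in S phase, in amounts that match DNA synthesis. NPAT, phosphorylated by cyclin E with CDK2, drives transcription of the histone gene clusters. The messages end in a conserved stem-loop rather than a poly(A) tail, the stem-loop is bound by SLBP, and a U7 snRNP with LSM10, LSM11 and ZNF473 directs the cut after it. Some members are also known to yield messages with a poly(A) tail outside S phase. Whether the libraries were selected for poly(A) RNA is not given in the sources used here.

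The stem-loop and the stretches between genes transcribed away from each other are shown first, because the results below turn on genes that share them. A search of GENCODE 29 transcripts for the histone 3′ stem-loop found it in 29 of the 65 members with a transcript there, against 0.254% of 19702 protein-coding genes. Capitals mark the stem-loop, and 5 bases on each side are in lower case. The first 4 genes below are among those that rose after etoposide and the last 2 among those that fell.
H2AC6: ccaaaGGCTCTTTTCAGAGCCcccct
H2BC21: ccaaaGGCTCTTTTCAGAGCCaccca
H4C8: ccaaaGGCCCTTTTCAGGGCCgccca
H2BC4: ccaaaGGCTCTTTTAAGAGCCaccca
H2BC9: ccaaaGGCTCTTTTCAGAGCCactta
H3C8: aaaaaGGCTCTTTTAAGAGCCgccta
The H2AC6, H2BC21 and H2BC9 stem-loops are the same 16 letters, which 15 members carry. The H4C8 form was found in 5 members and the H2BC4 form in 4, of which H3C8 is another. Of the genes shown, H2BC9, which fell, has the letters of H2AC6 and H2BC21, which rose, and H3C8, which fell, those of H2BC4, which rose. Of the members with the H4C8 form, H4C8 and H4C16 rose at week 1, H4C5 was not called, and H4C2 and H4C11 were not tested. A stem-loop was found in 16 of 23 members that rose at week 1 and in 5 of 13 that fell, by the transcripts annotated. H2AC18 and H2AC19, which rose, and H3C3, which fell, had no transcript to search. Several transcripts without a match are shorter than the gene in the files. H2BC12 has 381 against 495 bases and H2AC20 390 against 494. A stem-loop not found is therefore not shown to be absent, and both shares depend on the transcript models.

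RefSeq promoter windows of 300 bases (250 before and 50 after each start, GRCh38.p14) matched 64 of the 69 members and all 41 tested. Capitals below mark matches on either strand to the CCAAT box, to the TATA box spelled TATAAA, and to the octamer, spelled ATTTGCAT, and matches that overlap were counted separately. The first stretch is the whole span between the starts of H2AC20 and H2BC21 (chr1:149886683-149886917, minus strand, read toward H2BC21), a pair that parted after etoposide. The second is the span between H2BC4 and H2AC6 (chr6:26123927-26124171, plus strand, read toward H2AC6), a pair that rose together. The third is the 250 bases before H2BC12 (chr6:27146859-27147108, minus strand), the member with the highest level per length at week 1.
H2BC21 and H2AC20: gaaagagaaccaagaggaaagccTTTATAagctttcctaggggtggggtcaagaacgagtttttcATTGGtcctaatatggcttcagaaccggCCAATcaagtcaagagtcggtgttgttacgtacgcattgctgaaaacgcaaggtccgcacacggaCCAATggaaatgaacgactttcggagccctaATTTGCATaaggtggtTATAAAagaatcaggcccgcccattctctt
H2AC6 and H2BC4: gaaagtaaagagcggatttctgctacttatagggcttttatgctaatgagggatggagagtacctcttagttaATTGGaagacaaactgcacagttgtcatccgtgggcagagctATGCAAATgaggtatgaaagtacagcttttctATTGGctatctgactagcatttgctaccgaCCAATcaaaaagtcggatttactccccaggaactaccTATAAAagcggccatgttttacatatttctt
H2BC12: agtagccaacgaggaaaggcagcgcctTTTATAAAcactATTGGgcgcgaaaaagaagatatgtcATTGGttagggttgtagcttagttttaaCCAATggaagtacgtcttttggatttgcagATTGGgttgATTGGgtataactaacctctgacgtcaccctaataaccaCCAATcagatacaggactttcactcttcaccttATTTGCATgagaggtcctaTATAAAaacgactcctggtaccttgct
CCAAT was found in 84.4% of member windows against 34.6% of all 35116 windows of the table. TATAAA was found in 67.2% against 11.5%, and ATTTGCAT in 40.6% against 1.77%. Another motif, TTTGGCGC, a textbook form of the E2F site, was in 0 of the 64 member windows and in 0.652% of all windows, which says only that those letters are absent there. Among tested members, CCAAT was in 17 of 23 windows of genes that rose at week 1 and in 13 of 13 of genes that fell. TATAAA was in 16 of 23 and 6 of 13, and ATTTGCAT in 8 of 23 and 6 of 13. These are matches of letters, given as descriptions.

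Totals over named genes ran from 77.2 to 102.8 M counts per library, of which 4231 to 24086 were counts of the members. Week 0 replicates 1 and 4 stood apart, with 5.93% and 5.16% of counts in ribosomal protein genes against 3.15% to 3.92% in the other 15 libraries. Results that lean on them are given with and without them, and their part in the results was not tested otherwise. The summed level of 12 fibroblast markers was 30561 to 36797 CPM (counts scaled to the library total) at week 0, 43951 to 46958 at week 1 and 58994 to 62062 at week 4. Epithelial markers summed to 58.7 to 66.3, 242.7 to 282.3 and 201.4 to 226.9 CPM. They were nearly all KRT8, KRT18 and KRT19, while mean EPCAM and CDH1 were at most 0.32 and 0.18 CPM in any group. Endothelial markers summed to at most 93.5 CPM and leukocyte markers to at most 0.90 CPM in any library. Since RNA was taken in bulk, fewer cells making a message and less of it per cell cannot be told apart.

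Replication-dependent histone RNA was higher after etoposide and was carried by few genes. Summed over the 69 members, the level was 48.8 ± 6.86 CPM (SD, n = 5) at week 0, 261.2 ± 8.08 CPM (n = 6) at week 1 and 131.6 ± 6.24 CPM (n = 6) at week 4. The highest untreated library reached 56.1 CPM, the lowest at week 4 was 124.3 CPM and the lowest at week 1 was 252.9 CPM, so the 3 groups did not overlap. By class, the H2A sum was 17.2 ± 4.85, 98.2 ± 3.63 and 57.2 ± 1.72 CPM at weeks 0, 1 and 4. The H2B sum was 19.4 ± 0.85, 130.4 ± 4.12 and 59.2 ± 4.11 CPM. H1 genes summed to 6.84 ± 1.25, 17.5 ± 1.35 and 8.49 ± 1.24 CPM. H3 genes summed to 3.05 ± 0.41, 6.08 ± 0.60 and 3.21 ± 0.36 CPM, and H4 genes to 2.31 ± 0.46, 8.96 ± 0.42 and 3.62 ± 0.28 CPM. H2AC6, H2BC12, H2BC21 and H2BC5 together made up 49.3% ± 1.21 of member counts at week 0, 80.2% ± 0.50 at week 1 and 80.2% ± 1.05 at week 4. Sums carry no test here.

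**Figure D1:**
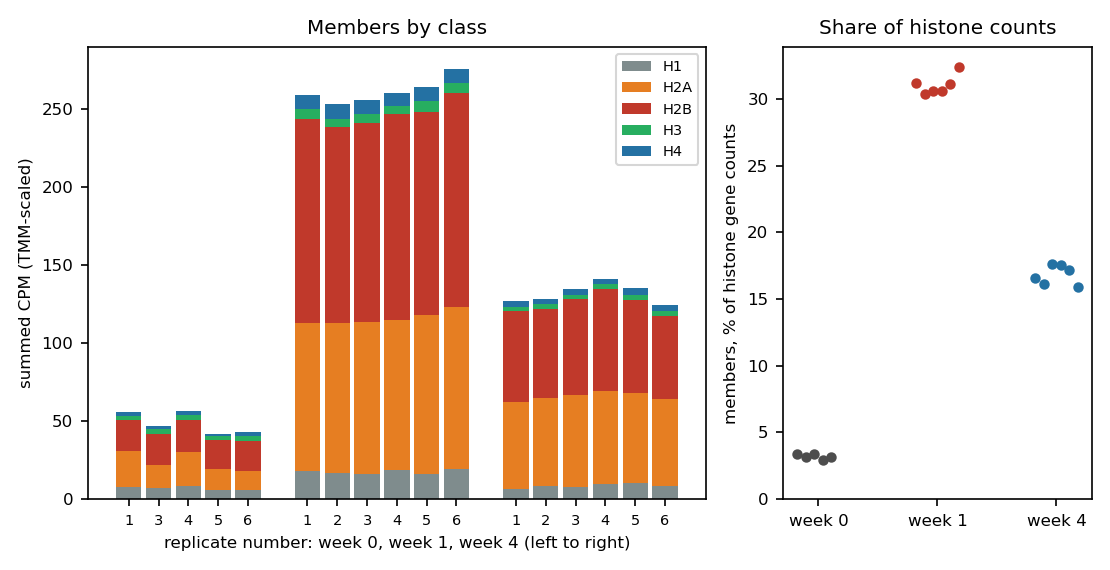
Left, summed CPM (TMM-scaled) of the 69 members in each library, stacked by histone class, with libraries ordered by week and replicate number; right, the members as a percent of all histone gene counts, 1 point per library. Week 1 libraries stand at 252.9 to 275.8 CPM and week 4 libraries at 124.3 to 140.9 CPM, most of it H2A and H2B, against 42.0 to 56.1 CPM at week 0.

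Replication-independent histone genes, which supply histones outside S phase, moved the other way in sum. The 12 of 14 listed genes that were found in the files summed to 1476 ± 127, 580 ± 6.93 and 651 ± 14.7 CPM at weeks 0, 1 and 4. At week 1 11 of the 12 fell and H2AJ rose. At week 4 all 12 were below week 0 past the test. H3-3B, a gene for the replacement histone H3.3, went from 378 ± 29.1 to 154 ± 4.18 and 188 ± 4.4 CPM, and H2AZ1 from 293 ± 45.7 to 53.7 ± 1.69 and 58.1 ± 2.75 CPM. The replication-dependent members made up 3.19% ± 0.18 of all histone gene counts at week 0, 31.0% ± 0.74 at week 1 and 16.8% ± 0.72 at week 4.

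Week 1 against week 0 asks how the members stood early after etoposide. Of the 41 tested members, 23 rose and 13 fell at an adjusted p under 0.05, and 5 were not called (edgeR's quasi-likelihood test, Benjamini-Hochberg over 16891 genes). Among all tested genes 32.9% rose and 34.0% fell, while the members' shares were 56.1% and 31.7%. In 19 members every week 1 library was above every week 0 library, and in 8 every one was below (24.8% and 24.0% of all genes). All 23 that rose and 12 of the 13 that fell changed by over 2-fold. Of the 16891 tested genes, 1964 were called risen and 1533 fallen by over 2-fold. The median log2 fold change was 1.31 over the tested members and -0.02 over all tested genes. Changes are relative to TMM scaling, which sets the bulk of genes level between libraries and without which the median gene would stand at -0.12, -0.14 and -0.01 log2 in the 3 comparisons. Leaving out week 0 replicates 1 and 4 gave 24 members risen and 11 fallen.

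Week 4 against week 0 asks how the members stood late. At week 4, 22 members rose and 14 fell (33.9% and 33.7% of all genes), and libraries did not overlap in 18 higher and 10 lower members (25.4% and 23.6%). The median log2 fold change was 0.51 against 0.00 for all genes, and 17 members rose and 13 fell by over 2-fold. Of the 16891 tested genes, 2047 were called risen and 1275 fallen by over 2-fold. Without week 0 replicates 1 and 4 the counts were 22 and 16.

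Week 4 against week 1 gave calls in a single direction. From week 1 to week 4, 20 members fell and 0 rose, where 18.6% of all genes fell and 21.8% rose. At an unadjusted p under 0.05, edgeR gave 21 lower and 0 higher, and DESeq2 and limma-voom each gave 20 fallen and 0 risen at an adjusted p. In 15 members every week 4 library was below every week 1 library (14.9% of all genes), and in 0 it was above (15.3%). The median log2 fold change was -0.63 against 0.01 for all genes. Taking the 3 comparisons together, 15 members rose at week 1, fell back by week 4 and still stood above week 0. Another 7 rose, stayed above week 0 and were not called between weeks 1 and 4. In 11 members the level fell by week 1, was below week 0 at week 4, and was not called in between. The comparisons with week 0 share its 5 libraries.

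**Figure D2:**
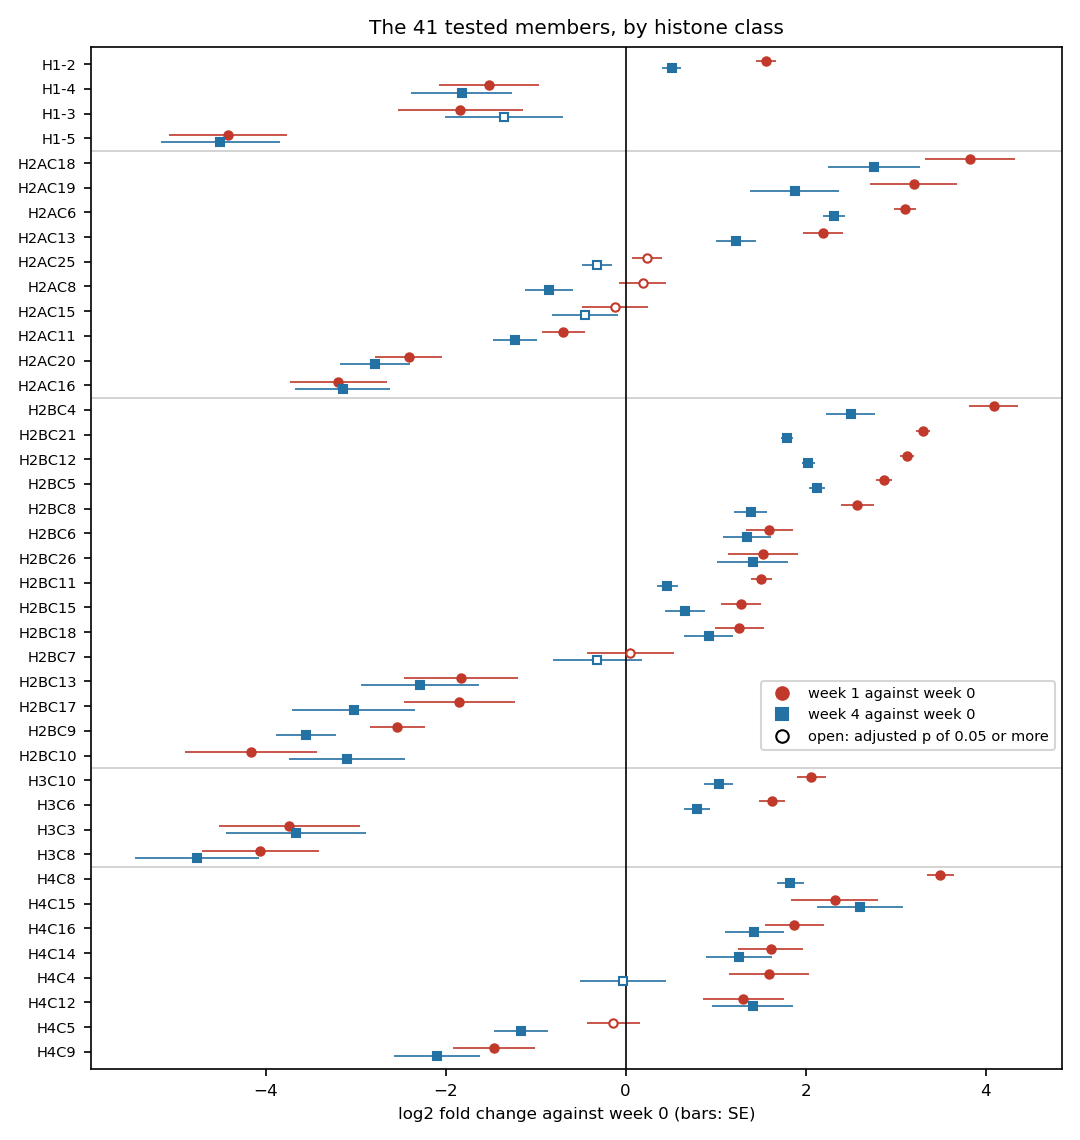
Log2 fold change against week 0 of the 41 tested members, grouped by histone class, at week 1 (circles) and week 4 (squares), with bars for the standard error and open symbols for an adjusted p of 0.05 or more. All 5 classes hold genes on both sides of 0, and most that rose sit farther right at week 1 than at week 4.

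Of the 10 tested H2A genes, 4 rose and 3 fell at week 1. For this class and those below, the shares of all tested genes were 32.9% risen and 34.0% fallen at week 1. At week 4 they were 33.9% and 33.7%. H2AC6 had the most counts of all members after etoposide. Its level was 13.3, 8.97, 14.5, 8.28 and 7.91 CPM in week 0 replicates 1, 3, 4, 5 and 6. At week 1 the lowest, median and highest libraries were at 87.4, 89.6 and 95.2 CPM, and at week 4 at 50.7, 52.5 and 54.5 CPM. The highest untreated values came from replicates 1 and 4, and all 3 groups were apart. H2AC6 thus rose 8.60-fold at week 1 (log2 fold change 3.10 ± 0.12 SE; edgeR, adjusted p = 8.31e-16) and stood 4.97-fold above week 0 at week 4. The fall from week 1 to week 4 was 1.73-fold (edgeR, adjusted p = 2.79e-06). Without week 0 replicates 1 and 4 its log2 fold change at week 1 was 3.43.

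Lower H2A genes divided. H2AC18 and H2AC19, near-identical copies that cannot be told apart with confidence here, had 16 and 20 counts in all week 0 libraries, 248 and 202 at week 1, and 128 and 86 at week 4. Both rose at week 1, by 3.82 ± 0.50 and 3.20 ± 0.48 log2. The rise of H2AC18 at week 4, 2.76 ± 0.51 log2, was the largest there among members under 5 CPM. H2AC13 rose from 0.19 ± 0.06 to 0.89 ± 0.14 CPM and stood at 0.46 ± 0.06 CPM at week 4. H2AC20 fell from 0.54 ± 0.30 to 0.10 ± 0.05 and 0.08 ± 0.02 CPM, 5.33-fold at week 1 (edgeR, adjusted p = 6.88e-06), and its libraries did not overlap with week 0. Its log2 change at week 1, -2.41 ± 0.38, was -1.83 without week 0 replicates 1 and 4 (adjusted p = 0.000638) and -1.49 within the libraries with a gene length column (adjusted p = 0.0462). H2AC16 fell from 108 counts over week 0 to 12 over week 1 and 13 over week 4. H2AC11 went from 1.24 ± 0.24 to 0.76 ± 0.19 and 0.53 ± 0.25 CPM. Its fall at week 1 passed (edgeR, adjusted p = 0.0149), but did not without week 0 replicates 1 and 4 (adjusted p = 0.0866) or within the 4 libraries whose files hold a gene length column (adjusted p = 0.646).

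H2AC25, H2AC8 and H2AC15 were not called at week 1. H2AC25, with 3.05 ± 0.99, 3.60 ± 0.40 and 2.45 ± 0.33 CPM, fell from week 1 to week 4 (edgeR, adjusted p = 0.00723). Against week 0 its libraries overlapped, and untreated replicates 1 and 4 were its highest at 4.18 and 3.87 CPM. Without those libraries H2AC25 was 0.58 log2 higher at week 1 (edgeR, adjusted p = 0.00174). Within the libraries with a gene length column it was 0.75 higher, and in the other 13 it was -0.033. H2AC8 likewise passed as higher at week 1 without replicates 1 and 4 (0.62, adjusted p = 0.0424), and its fall at week 4, 1.80-fold, was then lost (adjusted p = 0.164). The calls of both genes therefore depend on which untreated libraries are used.

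H2B was the class with the most genes that rose: 10 of 15 at both week 1 and week 4, with 4 fallen at each. H2BC12 had the highest level per length of all members at week 1, 115 CPM per kilobase against 54.5 for H2AC6, on the lengths in the files. In CPM, H2BC12 was at 7.16, 7.26, 6.91, 5.74 and 5.63 in week 0 replicates 1, 3, 4, 5 and 6. It ran from 54.2 over a median of 56.6 to 60.5 CPM at week 1, and from 23.4 over 26.9 to 29.03 CPM at week 4. The groups were far apart, with an 8.73-fold rise at week 1 (edgeR, adjusted p = 1.82e-19). At week 4 H2BC12 was 4.09-fold above week 0 and 2.14-fold below week 1. Of the windows of 75 bases in its transcript, 50.5% also occur in another histone gene, so some of its reads may belong to a copy.

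H2BC21 was at 3.83, 4.45, 3.98, 4.43 and 4.75 CPM at week 0, in replicate order. Week 1 libraries held 39.5 to 44.1 CPM (median 42.4) and week 4 libraries 13.1 to 16.6 CPM (median 14.7). No library of any group overlapped with another group. The rise was 9.88-fold at week 1 (log2 fold change 3.30 ± 0.07; edgeR, adjusted p = 4.84e-20), and the fall to week 4 was 2.85-fold. H2BC5 went from 2.12, 2.60, 2.72, 2.54 and 3.02 CPM at week 0 to 17.1 to 20.5 CPM (median 19.2) at week 1. At week 4 it was at 10.1 to 12.9 CPM (median 11.4). It was thus 7.31-fold higher at week 1 and 4.37-fold higher at week 4, and fell 1.67-fold in between. For H2BC21, 4.95% of windows are shared with another histone gene.

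**Figure D3:**
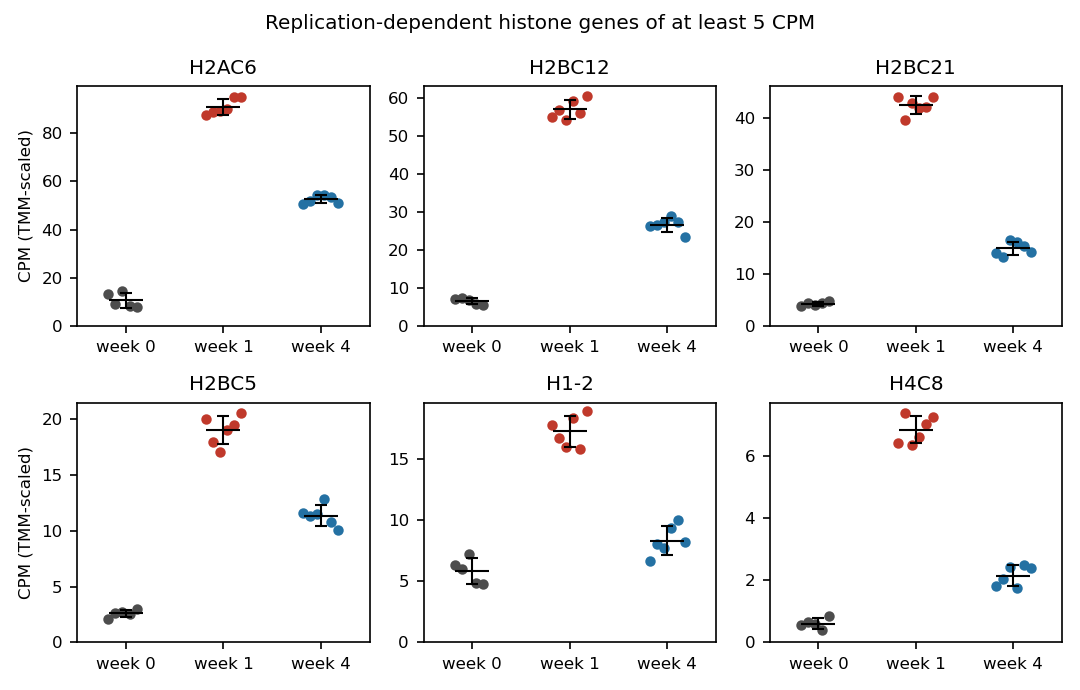
CPM (TMM-scaled) of the 6 members with a mean of at least 5 CPM in any group, 1 point per library, with the mean and SD as bars. H2AC6, H2BC12, H2BC21, H2BC5 and H4C8 show 3 groups that do not overlap, and H1-2 overlaps between week 0 and week 4.

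Among H2B genes under 5 CPM, H2BC4 had the largest rise of all such members at week 1, 4.09 ± 0.27 log2. It went from 0.12 ± 0.06 to 2.02 ± 0.39 and 0.67 ± 0.17 CPM, from 56 counts over all week 0 libraries to 1033 and 363. H2BC8 rose from 0.53 ± 0.21 to 3.13 ± 0.27 and 1.37 ± 0.21 CPM, and H2BC11 from 1.14 ± 0.12 to 3.24 ± 0.31 and 1.57 ± 0.19 CPM. H2BC6, H2BC15, H2BC18 and H2BC26 rose by 1.26 to 1.60 log2 at week 1 and stood above week 0 at week 4. H2BC9 went the opposite way. Its libraries were at 2.11, 2.06, 2.01, 1.99 and 1.85 CPM at week 0, at 0.22 to 0.53 CPM at week 1 and at 0.05 to 0.38 CPM at week 4. All treated libraries were below all untreated ones, and H2BC9 fell 5.81-fold at week 1 and 11.7-fold at week 4 (edgeR, adjusted p = 1.64e-07 and 2.71e-09). H2BC10, H2BC13 and H2BC17 also fell, from 110, 85 and 104 counts over week 0 to 6, 25 and 31 over week 1. H2BC7 was not called in any comparison.

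Linker histones divided too, and H1-2, the only H1 gene above 5 CPM, was the only tested H1 gene to rise. H1-2 was at 6.33, 6.03, 7.23, 4.84 and 4.81 CPM at week 0, at 15.8 to 18.9 CPM (median 17.3) at week 1 and at 6.65 to 9.99 CPM (median 8.11) at week 4. Week 1 lay above both other groups, while week 4 and week 0 overlapped. The rise was 2.96-fold at week 1 (edgeR, adjusted p = 2.07e-11). At week 4 the level was 1.42-fold above week 0 (edgeR, adjusted p = 0.000255). H1-3, H1-4 and H1-5 fell at week 1. H1-5 showed the largest fall of all members under 5 CPM at week 1, from 176 counts over week 0 to 8 over week 1, and 8 over week 4 (log2 fold change -4.42 ± 0.66 at week 1). H1-1 and H1-6, the second a testis linker histone, were too low to test.

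In H3 2 genes rose and 2 fell at both weeks. H3C10 rose from 0.68 ± 0.16 to 2.84 ± 0.42 CPM and was at 1.39 ± 0.17 CPM at week 4. H3C6 rose from 0.97 ± 0.20 to 2.99 ± 0.36 CPM and was at 1.67 ± 0.24 CPM at week 4. Both fell between weeks 1 and 4, and their libraries did not overlap in any comparison. H3C8 had the largest fall at week 4 among members under 5 CPM, from 227 counts over week 0 to 14 at week 1 and 9 at week 4 (log2 fold change -4.76 ± 0.69 at week 4). H3C3 fell from 155 counts to 12 and 13.

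Of 8 tested H4 genes, 6 rose at week 1 and H4C9 fell. H4C8 was at 0.56, 0.65, 0.58, 0.39 and 0.86 CPM at week 0, at 6.37 to 7.38 CPM (median 6.84) at week 1 and at 1.75 to 2.50 CPM (median 2.22) at week 4. The groups did not overlap. This was an 11.3-fold rise at week 1 (edgeR, adjusted p = 4.14e-15) and a 3.17-fold fall to week 4. H4C4 rose 3.01-fold at week 1 and at week 4 was at 0.07 ± 0.03 CPM, against 0.07 ± 0.05 CPM at week 0, a difference that was not called. Its fall of 1.62 log2 from week 1 to week 4 was the largest among members under 5 CPM. H4C12, H4C14, H4C15 and H4C16 rose and were not called between weeks 1 and 4. The first 3 are uncertain, since 96.2% to 100% of the windows of 75 bases in their transcripts are shared with another histone gene.

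A member with few counts could pass the filter through the group where it was high, so calls among low members are descriptions of those that passed. The 28 untested members had at most 39 counts in any library. H2AC14 had 91 counts over week 0, 7 over week 1 and 7 over week 4, and H4C1 had 65, 2 and 5. H1-6 had 0, 22 and 3. H2AC1, H2BC1 and H3C14 had 0 counts in all 17 libraries. In H3C14 100% of the windows of 75 bases, and in H2AC14 82.4%, also occur in another histone gene, so the counts of both are uncertain. With no filter on low counts, 66 members could be tested and 24 fell at week 1 in place of 13, while 24 rose in place of 23. At week 4 26 fell in place of 14 and 22 rose as before. The shares over all genes in that fit were not computed.

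By gene length in the deposited files, nearly all tested longer members rose, while the shorter ones went both ways. The split at 1000 bases was chosen after the values were seen and is therefore given without a test. Of 16 members listed as longer than 1000 bases 15 were tested, and 14 rose at week 1 and 14 at week 4. The exception at both times was H2AC25. Among all tested genes 32.9% rose at week 1 and 33.9% at week 4. The 14 include H4C14 and H4C15, which share 96.2% and 97.1% of their windows of 75 bases with another histone gene. They may therefore not be separate cases. Of the 53 shorter members 26 were tested, and 9 rose and 13 fell at week 1, where 32.9% and 34.0% of all tested genes did. The shorter genes that rose include H2BC12, H2BC5 and H1-2. The median log2 fold change at week 1 was 1.63 over the longer and -0.41 over the shorter members. In GENCODE 29 a stem-loop was found in 14 of the 16 longer members, with 116 bases after it in H2BC4, 1128 in H2AC6, 1655 in H4C8, 1729 in H2BC21 and 1917 in H2BC26, and in neither H2BC11 nor H2AC1. Over 100 bases are annotated after the stem-loop in 14 of 16 risen members that hold it, and in 4 of 5 fallen ones. Transcript models of that annotation and the lengths in the files differ for some genes, such as H2BC9 with 2060 and 462 bases and H3C8 with 2411 and 496. What part the gene models used for counting had in these patterns was not tested.

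**Figure D4:**
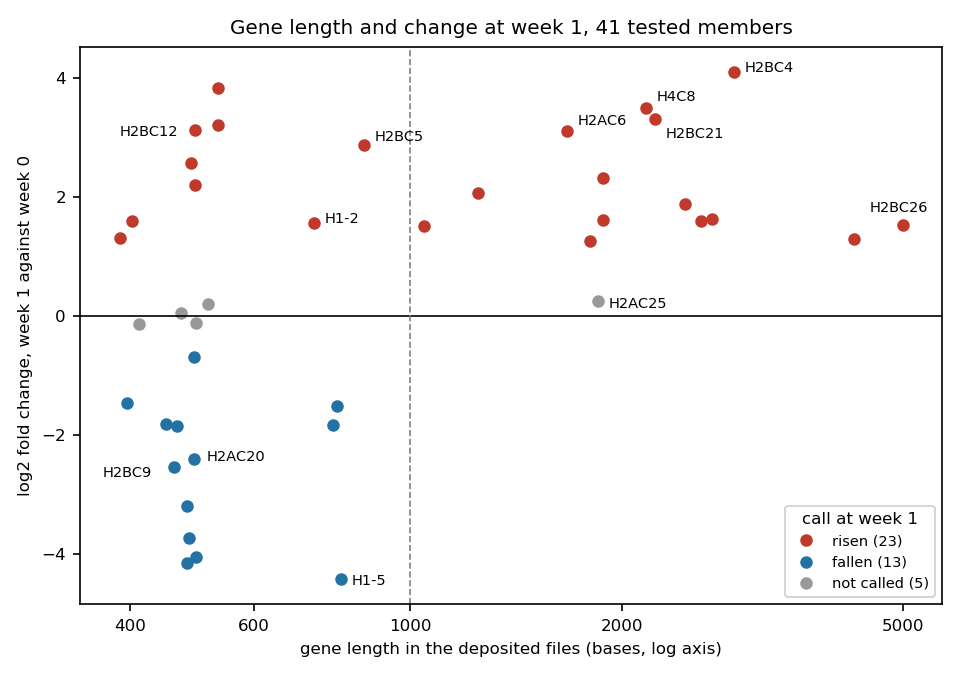
Log2 fold change at week 1 against week 0 (vertical axis) by the gene length in the deposited files (horizontal log axis), 1 point per tested member, coloured by its call, with a dashed line at 1000 bases. Right of the line 14 of 15 members rose, and left of it 9 of 26 rose and 13 fell, against 32.9% risen and 34.0% fallen over all tested genes.

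Head-to-head gene pairs start from the same short stretch, though the lengths of their genes in the files often differ. The RefSeq table holds 12 such pairs of members, with starts 193 to 247 bases apart, and both genes were tested in 7. At week 1 a gene rose and its partner fell in 3 pairs: H2BC21 rose and H2AC20 fell, H2BC11 rose and H2AC11 fell, and H2AC13 rose and H2BC13 fell. In 3 more pairs H2BC8, H2BC15 or H2BC26 rose and its H2A partner was not called. Only H2AC6 and H2BC4 rose together. For comparison, 32.9% of all tested genes rose and 34.0% fell at week 1, and 56.1% and 31.7% of the tested members. How many such splits these shares alone would give was not computed, so the counts of pairs are descriptions. In the files H2BC21 and H2AC20 have 2224 and 494 bases, and H2BC11 and H2AC11 1046 and 493. H2BC15 and H2AC15 have 4265 and 496, and H2BC26 and H2AC25 5002 and 1850. The lengths are closer for H2AC13 and H2BC13 (495 and 451) and for H2BC8 and H2AC8 (489 and 517). What part gene length had in these contrasts was not tested. Of the windows of 75 bases, 60.1% in H2AC13 and 23.7% in H2AC20 also occur in another histone gene, so the counts of those pairs are uncertain. Without week 0 replicates 1 and 4, H2AC11 stood at -0.55 log2 at week 1 in place of -0.69 (edgeR, adjusted p = 0.0866) and H2BC13 at -1.67 in place of -1.83 (adjusted p = 0.0631), and neither passed.

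The ratio within a pair was tested as the log2 ratio of H2B over H2A counts, with 0.5 added to each count, by exact two-sided permutation tests over libraries. Of 21 tests (7 pairs, 3 comparisons), 15 passed at a Benjamini-Hochberg adjusted p under 0.05. These tests rest on the same counts as the calls above and so add no separate support to them. Those that passed include H2BC13 over H2AC13 against week 0, where the added 0.5 sets some values. H2BC21 over H2AC20 was 1.89, 3.17, 2.69, 3.70 and 4.19 at week 0 in replicate order. It was 7.78 to 9.25 at week 1 and 6.97 to 8.36 at week 4. Untreated libraries were thus below all others. The mean moved from 3.13 ± 0.89 (SD, n = 5) to 8.74 ± 0.57 (n = 6), a difference of 5.61 log2 (exact permutation p = 0.00433, the smallest that 5 against 6 libraries can give; adjusted p = 0.00699). The 235 bases printed above for this pair hold a TATAAA match in the orientation of each gene.

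Other pairs moved less or in the opposite direction. H2BC11 over H2AC11 went from -0.11 ± 0.39 to 2.10 ± 0.37 at week 1 and 1.66 ± 0.46 at week 4, and H2BC8 over H2AC8 from -0.02 ± 0.68 to 2.31 ± 0.26 and 2.14 ± 0.36. For H2BC13 and H2AC13 the ratio after etoposide has no firm size, since H2BC13 had 0 counts in week 1 replicates 1 and 3 and week 4 replicate 3, where the added 0.5 sets the value. H2BC13 counts summed to 85, 25 and 19 over weeks 0, 1 and 4, and those of H2AC13 to 93, 458 and 246. In libraries with an H2BC13 count the ratio was -0.30 to 0.10 at week 0, -4.88 to -2.77 at week 1 and -3.79 to -2.60 at week 4. H2BC4 over H2AC6, the pair that rose together, moved from -6.53 ± 0.71 to -5.51 ± 0.26 at week 1 (exact permutation p = 0.0173, adjusted p = 0.026). At week 4 that ratio was -6.32 ± 0.31 and did not pass against week 0 (exact permutation p = 0.502, adjusted p = 0.527). Between weeks 1 and 4, only the ratios of H2BC21 to H2AC20 and of H2BC4 to H2AC6 passed.

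**Figure D5:**
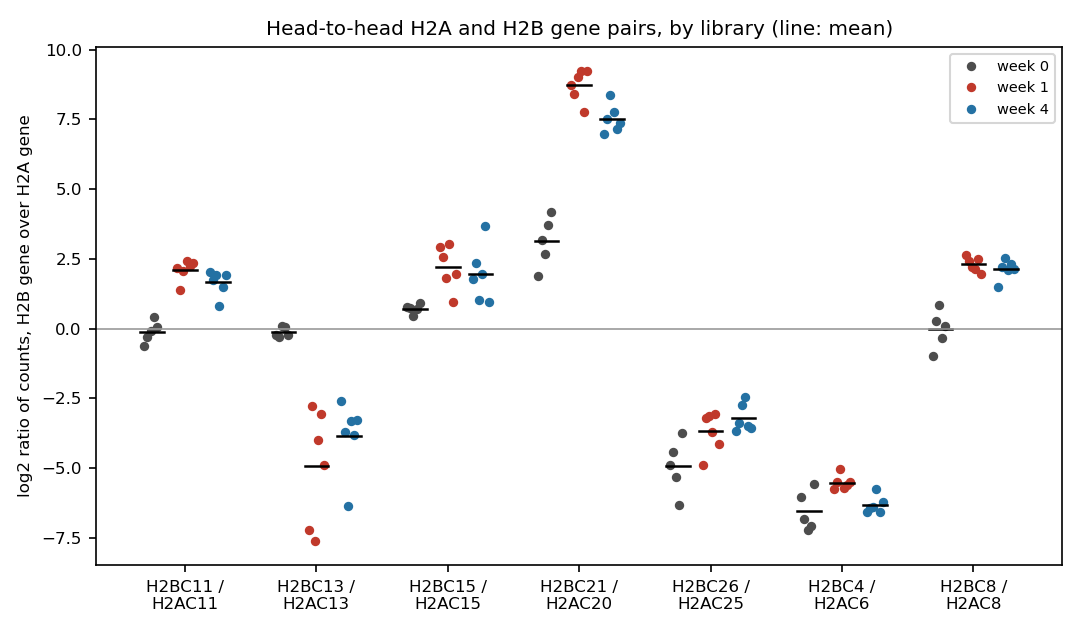
Log2 ratio of H2B over H2A counts in the 7 head-to-head pairs with both genes tested, 1 point per library at weeks 0, 1 and 4, with a line at each mean. The ratio of H2BC21 to H2AC20 climbs from a mean of 3.13 to 8.74, while that of H2BC4 to H2AC6 moves from -6.53 to -5.51. The lowest points of H2BC13 to H2AC13, at week 1 replicates 1 and 3 and week 4 replicate 3, have 0 counts of H2BC13 and are set by the 0.5 added, so the means drawn there have no firm size.

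By chromosome, 50 members with a RefSeq entry lie on chromosome 6, 13 on chromosome 1 and 1, H4C16, on chromosome 12. On chromosome 6 15 of 31 tested members rose and 12 fell at week 1, and on chromosome 1 7 of 9 rose and 1, H2AC20, fell. Among all tested genes 32.9% rose and 34.0% fell. Genes that rose and genes that fell thus lie on the same chromosomes.

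The genes listed as regulators of histone messages mostly fell while the leading members rose. Because the list mixes genes that make, process and degrade these messages, its counts speak of no single step. Of 15 regulators, 12 fell and TUT7 rose at week 1, and 10 fell and TUT7 rose at week 4, where 34.0% and then 33.7% of all tested genes fell. TUT7, a uridylyl transferase that marks histone messages for decay, went from 31.5 ± 2.53 to 47.9 ± 3.55 and 43.3 ± 1.47 CPM. SLBP, the stem-loop binding protein, fell 1.83-fold, from 70.0 ± 7.70 to 38.3 ± 1.95 and then 36.2 ± 1.48 CPM (edgeR, adjusted p = 1.65e-11 at week 1). NPAT went from 20.1 ± 3.64 to 14.4 ± 1.12 CPM, a fall, and was not called at week 4 with 17.9 ± 2.04 CPM. CASP8AP2 (FLASH), a partner of the U7 snRNP, fell from 28.8 ± 3.38 to 13.3 ± 1.09 and 18.4 ± 1.68 CPM. NPAT, CASP8AP2 and LSM11 rose from week 1 to week 4, while LSM10 and TUT7 fell.

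Other regulators on the list mostly fell as well. CPSF3, the nuclease that cuts histone messages, fell 1.79-fold at week 1, CPSF2 1.56-fold, CSTF2 1.43-fold and SYMPK 1.32-fold. LSM10, LSM11, ZNF473 and ERI1, the exonuclease that trims the stem-loop, fell by 1.25-fold to 1.45-fold, and UPF1 by 1.14-fold. HINFP, an H4 gene activator, and MIF4GD, a partner of SLBP in translation, were not called. CCNE1, CCNE2 and CDK2 all fell at both weeks: CDK2 from 88.8 ± 4.43 to 21.1 ± 0.81 and 31.6 ± 2.05 CPM, and CCNE2 from 13.3 ± 2.90 to 2.18 ± 0.34 and 2.24 ± 0.49 CPM. All 18 listed S-phase genes fell by over 2-fold at week 1 and at week 4, RRM2 by 8.22-fold at week 1, and 14 of them were higher at week 4 than at week 1. By the same measure 1533 of the 16891 tested genes fell at week 1 and 1275 at week 4.

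Counts of other RNAs made without a poly(A) tail were mostly near 0 in these libraries. Of 11 such genes only 2 could be tested. RN7SL1 was at 12.3 ± 2.70, 5.2 ± 0.69 and 5.52 ± 0.54 CPM and RMRP at 1.30 ± 0.39, 0.65 ± 0.13 and 0.73 ± 0.17 CPM, and both fell at weeks 1 and 4. RN7SK, RN7SL2, RPPH1, VTRNA1-1 and SCARNA2 were at 0 counts in every library. The annotation and the handling of reads with several matches are not given, so 0 counts there do not show that the RNA was absent. What part library preparation had in the histone counts was not tested.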

How the data were processed

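Column-purified, DNase-treated RNA was made into libraries with an Illumina kit, per the labels' protocols. The authors deposited raw gene counts by symbol, a file per library, made with HISAT2 2.0.5.2 and featureCounts 1.4.6 per the submitters' processing notes. Those notes name a mouse genome build while the symbols are human, so the build is unclear and no coordinates are given for counted genes. Information on read length, strand setting, annotation and reads with several matches was not given in the sources used here. A gene length column stands in 4 of the deposited files (replicates 5 and 6 of week 0 and replicates 1 and 2 of week 1) and in none of the other 13. The entry without a name (0.221% to 0.289% of counts) was left out.

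All 17 libraries entered a single edgeR 4.0.16 fit (R 4.3.3, filterByExpr, TMM, a mean per group, quasi-likelihood F test, Benjamini-Hochberg over 16891 genes, calls at an adjusted p under 0.05). The 3 comparisons were week 1 and week 4 against week 0, and week 4 against week 1. Levels, given as mean ± SD, are CPM with TMM-adjusted totals, and the SE of a log2 fold change is its size over the square root of F. At library totals of 77.2 to 102.8 M, members under 0.1 CPM rest on few counts. No pair of libraries in a group agreed within sampling noise (chi-square per gene at least 7.38 over 40 pairs).

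The members and lists were chosen with earlier results of these data known. Members reaching a mean of 5 CPM in a group are given by library. Below that, the largest rise and fall of each comparison are named, and other members were named after their values were seen. Alternatives were other scalings, filters, tests (DESeq2 1.42.0, limma-voom 3.58.1), a replicate block, only the groups compared, file class, week 0 replicates 1 and 4 left out, and each library left out. The fit within the libraries that have a length column was added after seeing the data. Same-numbered libraries did not deviate together, so numbers were not taken as pairs. Exact permutation tests of pair ratios used scipy 1.17.1.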

Additional observations from a re-analysis of the deposited data

Results flagged for a closer look

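In 45 groups of libraries (15 members with a mean of at least 1 CPM, 3 weeks), the highest or lowest library was compared with the rest by Dixon's test, which flags about 1 group in 20 by chance. In 3 of them a week 4 library lay apart. H2AC11 was at 1.02 CPM in week 4 replicate 4 and at 0.33 to 0.53 CPM in the other 5 libraries. Without that library H2AC11 fell from week 1 to week 4 (log2 fold change -0.83; edgeR, adjusted p = 0.00263), a call that all libraries did not give (adjusted p = 0.0846). H2BC4 was at 1.00 CPM in the same library and at 0.53 to 0.69 CPM in the other 5. H2BC15 was at 0.46 CPM in week 4 replicate 3, against 0.84 to 1.07 CPM.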

How the results depend on the processing

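Counts of members risen and fallen stayed within 1.5 times the reported counts under RLE and upper-quartile scaling, DESeq2, limma-voom, fits of the compared groups alone, either file class where it could be fitted, and without week 0 replicates 1 and 4. With no filter 24 members fell at week 1 and 26 at week 4, since low members entered. A filter of 5 CPM in 5 libraries left 6 members, of which 6 rose and 0 fell at week 1, 6 rose and 0 fell at week 4, and 6 fell from week 1 to week 4. That filter fixes the split, since no member that fell against week 0 reached 5 CPM there and H2BC21, H2BC5 and H4C8 reached it only after etoposide. Leaving out each library in turn gave 23 to 25 risen and 12 to 15 fallen at week 1, 22 risen and 13 to 17 fallen at week 4, and 0 risen and 19 to 21 fallen between them, with 12 to 13, 11 to 13 and 4 to 5 regulators called.

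The replicate block gave 23 risen and 13 fallen at week 1, 22 and 14 at week 4, and 0 and 20 between. Over 16 same-number pairs the correlation of deviations ran from -0.08 to 0.14, and 4 of 17 libraries correlated best with their own number.

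Reversed signs, none of them called, were H2AC25 at week 1 (-0.033 in libraries without a length column) and at week 4 (0.022 without week 0 replicates 1 and 4), and H2AC15 at week 1 (0.095 in libraries without a length column, 0.051 without week 0 replicates 1 and 4, and -0.31 to 0.027 when single libraries were left out). From week 1 to week 4 they were H2BC13 (0.14 by limma-voom, -0.79 to 0.021 with single libraries left out) and H2BC26 (-0.28 to 0.0091 likewise). Besides the calls named above, that of H2BC9 from week 1 to week 4 (adjusted p = 0.0213) was lost without week 1 replicate 3 (0.0635), without week 4 replicate 5 (0.0547) and in the libraries without a length column (0.114), that of H2BC15 without week 1 replicate 4 (0.0572), and that of H2BC26 at week 1 in libraries with a length column (0.089), where H2BC13 was at 0.285. Without week 0 replicate 1 alone, H2AC25 (0.0431) and H2AC8 (0.0377) passed as higher at week 1 and H2AC8 was lost at week 4 (0.0735). H2AC25 passed as lower at week 4 without week 0 replicate 6 (0.00447) and in libraries without a length column (0.00126). The cause was not tested. The 6 members over 5 CPM kept direction and call under every alternative.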
